A study of Mus musculus with 2 samples.

Results

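The transcripts described here come from 37 genes of the lysosome, chosen by symbol from the 31053 features of the deposited feature lists. All 37 symbols matched a feature. They comprise the cathepsins and legumain, membrane proteins, other acid hydrolases, small carrier proteins with progranulin, subunits of the proton pump, and the transcription factors Tfeb and Tfe3.

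Cells were dissociated from eye cups of newborn mice (postnatal day 0) freed of the cornea, the lens and the optic nerve, and each genotype gave 1 library from 3 pooled eye cups. The control was Myrf fl/fl, with both copies of Myrf, which encodes a membrane-bound transcription factor, flanked by sites for the cre recombinase. The mutant was Rx>cre Myrf fl/fl, in which cre is made in the early eye field, the source of the neural retina and of the retinal pigment epithelium (RPE), whereas macrophages do not arise there. Both libraries carry the floxed alleles, no library without them was analysed here, and 3 pooled eye cups cannot be told apart. With 1 library per genotype no test across animals was possible, and every interval below is a 95% interval for counting error only.

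The lysosome is the acid compartment in which cells break down protein, lipid, sugar chains and worn organelles, and the proton pump in its membrane makes it acid. In the RPE it digests the photoreceptor outer segment tips taken up by phagocytosis, and macrophages use it to digest what they engulf. Tfeb and Tfe3 bind a short DNA element, the CLEAR element built on the letters CACGTG, in front of many lysosome genes.

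The control library held 14305 barcodes and 79017429 unique molecular identifiers (UMIs, each marking 1 captured transcript), and the mutant library held 12222 barcodes and 76272867 UMIs. After filtering, 12485 control and 10813 mutant cells were grouped into classes by marker genes. The 37 genes took no part in that grouping. The RPE-like class had 488 control and 204 mutant cells, with a median of 2450.5 and 10584 UMIs per cell. Of 12 RPE markers 6 counted for it, and Rpe65, a visual cycle enzyme, had no UMI in its mutant cells. The macrophage-like class, which may include microglia, had 260 control and 69 mutant cells, with a median of 2925.5 and 8565 UMIs, and all 14 of its markers counted. Levels are given as CPM, the UMIs of a gene per 1e+06 UMIs of the class, and a difference was counted when it reached 1.5-fold. Myrf itself had 743 UMIs in control RPE-like cells, 231 CPM, and 64 UMIs in mutant RPE-like cells, 26.8 CPM. The intervals were 215 to 249 CPM and 20.6 to 34.2 CPM.

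Promoter sequences from RefSeq (build GRCm38.p6) were matched for 32 of the 37 genes, as 38 promoters of 300 bases, of which 250 lie before the start site and 50 after it. Npc1, Atp6v1h, Asah1, Ctsb and Ctsh had no entry. The letters TCACGTG, searched on both strands, were present in 9 of the 38 promoters (23.7%) and in 3.77% of all 32851 promoters of the same length. The shorter CACGTG, which every TCACGTG contains, was present in 11 of them (28.9%) and in 7.15% of all promoters. The related TCATGTG was present in 6 of them (15.8%) and in 3.77% of all promoters. A match is a description of the letters and not of binding. The nearest match before the start site, in capitals, is shown with its flanks for the 9 genes, because these hold the letters that Tfeb and Tfe3 are known to bind. Each is written 5′ to 3′ on the strand of its gene. RefSeq start sites differ from gene starts in GENCODE M21, and the matches shown for Ctsd, Ctsa, Lgmn, Mcoln1 and Naglu lie inside the GENCODE span of the gene.
Ctsd: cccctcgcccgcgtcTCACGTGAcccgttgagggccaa
Ctsa: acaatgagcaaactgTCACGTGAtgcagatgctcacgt
Lgmn: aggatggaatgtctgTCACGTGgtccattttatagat
Lamp1: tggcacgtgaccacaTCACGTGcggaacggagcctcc
Mcoln1: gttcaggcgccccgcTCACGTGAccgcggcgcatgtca
Gaa: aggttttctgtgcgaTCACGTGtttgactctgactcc
Glb1: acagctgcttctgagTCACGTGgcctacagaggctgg
Naglu: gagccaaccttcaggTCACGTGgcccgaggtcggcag
Atp6v0d1: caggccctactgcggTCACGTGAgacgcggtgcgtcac
Ctsd, Ctsa and Mcoln1 each held 2 such sites and Lamp1 held 4, while the other 5 promoters held 1. The match began 99 bases before the start in Ctsd (chr7:142387904-142387941, minus strand), 49 bases before it in Glb1 (chr9:114401014-114401050, plus strand) and 16 bases before it in Lamp1 (chr8:13159130-13159166, plus strand). These 3 genes differed in direction between mutant and control RPE-like cells: Ctsd was lower, Glb1 was higher and Lamp1 differed by less than 1.5-fold. The 250 bases before the RefSeq start of Ctsd and Glb1 are shown whole, with the same letters in capitals, since these genes stand on opposite sides of the comparison.
Ctsd, chr7:142387828-142388077, minus strand: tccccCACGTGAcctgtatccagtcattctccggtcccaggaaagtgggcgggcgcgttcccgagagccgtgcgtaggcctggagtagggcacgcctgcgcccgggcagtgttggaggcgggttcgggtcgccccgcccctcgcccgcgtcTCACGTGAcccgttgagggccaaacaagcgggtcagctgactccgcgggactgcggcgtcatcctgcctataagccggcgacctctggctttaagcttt
Glb1, chr9:114400828-114401077, plus strand: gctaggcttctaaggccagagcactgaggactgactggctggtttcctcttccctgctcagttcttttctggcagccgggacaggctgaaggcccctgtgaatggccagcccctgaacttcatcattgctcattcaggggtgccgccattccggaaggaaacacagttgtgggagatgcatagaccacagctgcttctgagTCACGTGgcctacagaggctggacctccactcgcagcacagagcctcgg

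Mutant and control RPE-like cells were compared first, since Rx>cre removes Myrf in this lineage. Of the 37 genes, 36 had at least 20 UMIs over both libraries and were measured, and Ctss had none. In mutant cells 7 genes were at least 1.5-fold lower (19.4%) and 4 were at least 1.5-fold higher (11.1%), and the counting intervals of all 11 lay apart from no difference. Among all 11083 features measured in these cells, 12.1% were lower and 7.43% were higher by the same rule. The median log2 ratio of mutant over control was -0.13 for the 36 genes and -0.01 for all features. Summed over the 37 genes, lysosome transcripts were 15532 CPM in control and 13081 CPM in mutant RPE-like cells, and without Ctsd they were 9110 and 8859 CPM. Ctsd thus made up most of the difference between these sums.

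Among the proteases, Ctsd, which encodes the aspartic protease cathepsin D, had 20625 UMIs in control RPE-like cells, 6421 CPM, and 10079 UMIs in mutant cells, 4223 CPM. It fell by 0.60 on the log2 scale (interval -0.64 to -0.57), a level 1.52-fold higher in the control. The study named Ctsd among the genes reduced in these libraries, so its direction here is not independent evidence. Ctsd stood just past 1.5-fold: the log2 ratio was -0.67 in cells with more than 8000 UMIs, -0.50 in cells thinned to 1000 UMIs, and -0.38 in cells without a UMI of a macrophage marker. Its exons (chr7:142375911-142388038, GENCODE M21 on GRCm38) overlap those of Gm49369 on the same strand, so that reads in the shared part may not have been counted for it.

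Ctsk, a collagen-cleaving cathepsin best known from osteoclasts, had 107 UMIs in control RPE-like cells (33.3 CPM) and 37 in mutant cells (15.5 CPM), a log2 ratio of -1.06 (-1.68 to -0.55). It was highest in mesenchyme-like cells, with 609 CPM in control and 666 CPM in mutant cells. Summed over 10 mesenchyme markers, control RPE-like cells held 2460 CPM and mutant ones 343 CPM, and only 4 of 488 control cells but 42 of 204 mutant cells had no UMI of such a marker. The part of these transcripts in the Ctsk difference was not tested. Ctsh, a cathepsin with aminopeptidase activity, had 68 UMIs (21.2 CPM) in control and 31 UMIs (13.0 CPM) in mutant RPE-like cells, a log2 ratio of -0.66 (-1.37 to -0.07). Its level in control cells was 209 CPM in pericyte-like, 399 CPM in macrophage-like and 427 CPM in surface epithelium-like cells, and at a clustering resolution of 2, which kept 171 control and 120 mutant RPE-like cells, its log2 ratio was 0.11. Over 18 alternative settings Ctsh stayed at least 1.5-fold lower in 11, and with 5 CPM added its log2 ratio was -0.54.

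The other 7 proteases measured differed by less than 1.5-fold. Ctsb and Ctsc were somewhat lower in mutant RPE-like cells, with log2 ratios of -0.32 (-0.47 to -0.18) and -0.33 (-0.52 to -0.15). Ctsl, an endopeptidase, went from 1300 CPM in control to 1431 CPM in mutant cells, a log2 ratio of 0.14 (0.07 to 0.20). The proteases thus did not all move one way. Ctsa, whose product protects beta-galactosidase and neuraminidase in a complex, had a log2 ratio of 0.23, and Ctsz, Lgmn and Ctsf had 0.20, -0.21 and -0.10.

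**Figure D1:**
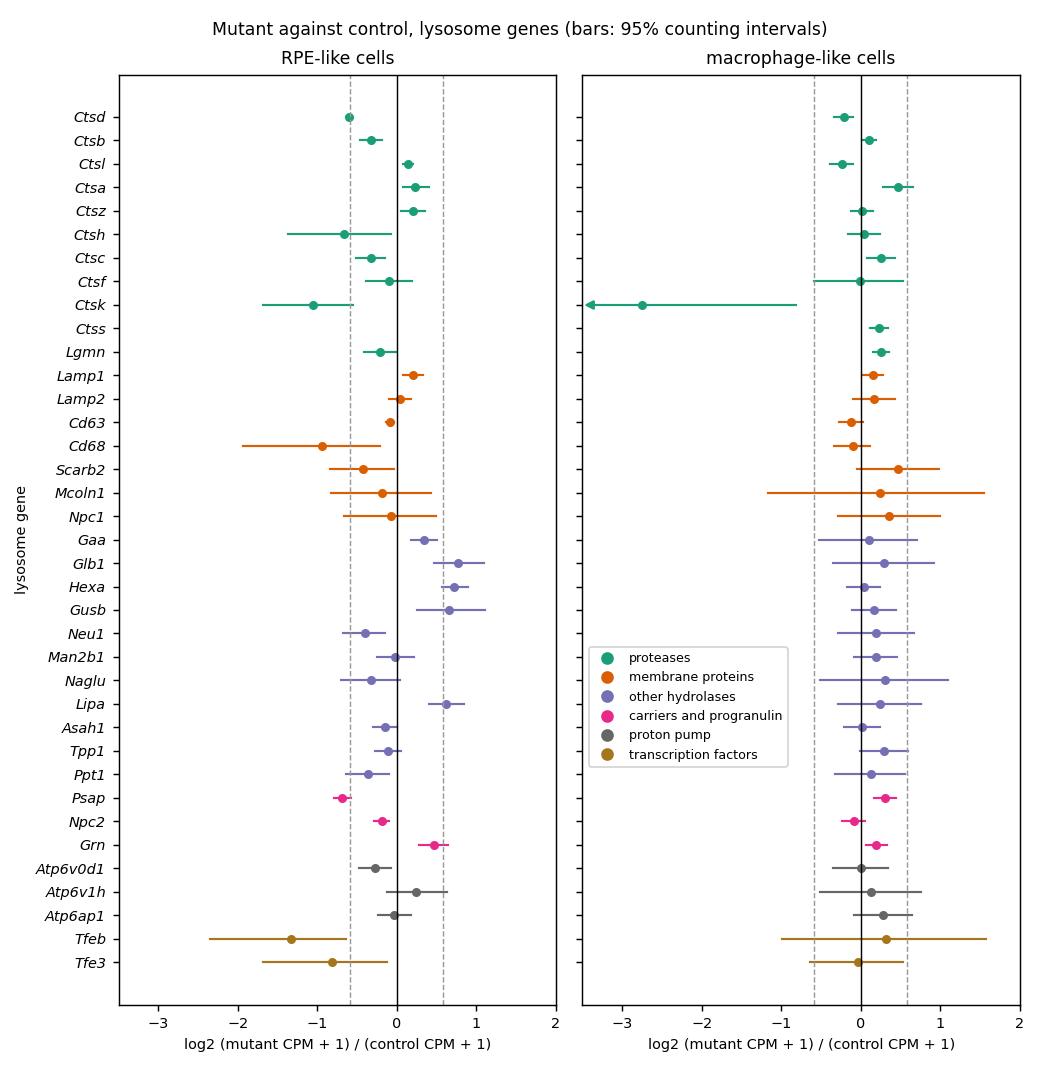
Log2 ratio of mutant over control CPM, with 1 CPM added to each, for each lysosome gene (vertical axis) in RPE-like and macrophage-like cells. Points are the ratios, bars the 95% counting intervals (an arrow marks a bar that runs past the axis), colours the roles and dashed lines 1.5-fold, and Ctss, with no UMI in RPE-like cells, is not drawn there. In RPE-like cells 7 genes lie beyond the left line and 4 beyond the right line, and in macrophage-like cells Ctsk alone lies beyond either line.

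The other acid hydrolases held all 4 genes that were higher in mutant RPE-like cells. Glb1, which encodes the beta-galactosidase that removes galactose from gangliosides, had 150 UMIs in control cells (46.7 CPM) and 191 in mutant cells (80.0 CPM), 1.71-fold higher in the mutant with a log2 ratio of 0.76 (0.46 to 1.10). Hexa, the alpha subunit of beta-hexosaminidase, which is missing in Tay-Sachs disease, had 559 UMIs (174 CPM) and 687 UMIs (288 CPM), a log2 ratio of 0.72 (0.56 to 0.89). Both enzymes act on gangliosides. Gusb, the beta-glucuronidase, had 86 UMIs (26.8 CPM) and 102 UMIs (42.7 CPM), a log2 ratio of 0.65 (0.25 to 1.11). Lipa, the acid lipase that splits cholesteryl esters and triglycerides, had 317 UMIs (98.7 CPM) and 363 UMIs (152 CPM), a log2 ratio of 0.62 (0.40 to 0.85). All 4 thus had more UMIs in the mutant class although its total was smaller, 2386832 UMIs against 3211951.

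These 4 did not carry the rest of the hydrolases with them. Gaa, the acid glucosidase that degrades glycogen, had a log2 ratio of 0.33 (0.17 to 0.50), while Neu1, a sialidase, and Ppt1, which removes palmitate from proteins, had -0.40 (-0.67 to -0.15) and -0.37 (-0.64 to -0.10). Man2b1, Asah1, Tpp1 and Naglu had ratios between -0.32 and -0.02 with intervals that include 0. Among cells with up to 4000 UMIs (294 control and 64 mutant) the Glb1 ratio was -0.06, and the Gusb ratio was 0.25 in the cells that had Xist but lacked Y-linked transcripts. In that same subset the Hexa ratio was 0.53. The subset had 81 control and 81 mutant RPE-like cells, whereas 126 control and 37 mutant ones had Y-linked transcripts but lacked Xist. In macrophage-like cells these numbers were 33 and 36, against 90 and 16. The pools thus differed in their mix of sexes, and genotype was not separated from sex in the full classes. Tfe3, Lamp2 and Atp6ap1 lie on the X chromosome. The part of sex in the differences was not tested. Over 18 alternative settings Hexa stayed at least 1.5-fold higher in 17, Glb1 in 16, Gusb in 15 and Lipa in 13. Glb1 exons (chr9:114401076-114474898) overlap those of Tmppe on the same strand.

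Of the carrier proteins, Psap encodes prosaposin, the precursor of the saposins that present sphingolipids to hydrolases. Psap had 2315 UMIs in control RPE-like cells (721 CPM) and 1069 in mutant cells (448 CPM), 1.61-fold higher in the control with a log2 ratio of -0.69 (-0.79 to -0.58). Its log2 ratio was -0.51 in cells thinned to 1000 UMIs and -0.58 in cells without a macrophage marker UMI, both short of 1.5-fold. Npc2, which carries cholesterol inside the lysosome, had a log2 ratio of -0.19 (-0.28 to -0.10). Grn, which encodes progranulin, measured 154 CPM in control and 213 CPM in mutant cells, a log2 ratio of 0.46 (0.28 to 0.64) that is under 1.5-fold, with values from 0.022 to 0.63 over 18 alternative settings. The carriers thus included both directions.

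Of the 7 membrane proteins, Cd68 alone reached 1.5-fold in RPE-like cells. Cd63, a tetraspanin of late endosomes, lysosomes and melanosomes, measured 2355 CPM in control and 2209 CPM in mutant cells, a log2 ratio of -0.09 (-0.14 to -0.04). Lamp1 and Lamp2, the main glycoproteins of the lysosomal membrane, had log2 ratios of 0.20 (0.08 to 0.33) and 0.04 (-0.10 to 0.18). Neither the tetraspanin nor the Lamp genes reached 1.5-fold. Scarb2, the receptor that brings glucocerebrosidase to the lysosome, had a log2 ratio of -0.42, and the ion channel Mcoln1 and the cholesterol transporter Npc1 had -0.18 and -0.08 with intervals that include 0.

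Cd68, a heavily glycosylated membrane protein best known from macrophages, had 47 UMIs (14.6 CPM) in control and 17 (7.12 CPM) in mutant RPE-like cells, a log2 ratio of -0.94 (-1.93 to -0.21). In cells with up to 2000 UMIs, with 4 and 1 Cd68 UMIs, the ratio was 0.37 (-5.23 to 3.73). The 14 macrophage markers together had 198 UMIs (61.6 CPM) in control and 98 UMIs (41.1 CPM) in mutant RPE-like cells, of which Csf1r gave 126 and 45 and Fcer1g gave 54 and 46. The other 12 markers together had 18 UMIs in control and 7 in mutant cells, with C1qc, Aif1, Ptprc, Cx3cr1, Adgre1 and P2ry12 at 0 in both. Ctss, which had 1987 UMIs in control macrophage-like cells, was also at 0 in RPE-like cells of both libraries.

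The proton pump subunits Atp6v0d1, Atp6v1h and Atp6ap1 had log2 ratios of -0.28 (-0.48 to -0.08), 0.24 (-0.13 to 0.62) and -0.03 (-0.24 to 0.18). No subunit among these 3 reached 1.5-fold. Tfeb, a regulator of lysosome gene transcription, had 59 UMIs (18.4 CPM) in control and 16 UMIs (6.70 CPM) in mutant RPE-like cells, a log2 ratio of -1.33 (-2.35 to -0.64). Tfe3, of the same family, had 52 UMIs (16.2 CPM) and 21 UMIs (8.80 CPM), a log2 ratio of -0.81 (-1.69 to -0.12). Both factors were lower in the mutant, on few transcripts. When cells were thinned to 1000 UMIs Tfeb had 4 control and 2 mutant UMIs left, with a log2 ratio of 0.11 (-3.35 to 2.92).

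Cells were also compared one by one at equal depth, by drawing 1000 UMIs from each cell and leaving out shallower cells. In RPE-like cells the median number of lysosome gene UMIs per 1000 was 13 in 388 control cells and 12 in 179 mutant cells, and the median for Ctsd was 4 and 3. Ctsd was found in 90.2% of these control cells (86.8% to 93.0%) and 80.4% of the mutant cells (73.9% to 86.0%). In retinal progenitor-like cells thinned alike, Ctsd was found in 10.1% of control and 9.69% of mutant cells. Hexa was found in 11.6% of control (8.59% to 15.2%) and 23.5% of mutant RPE-like cells (17.5% to 30.4%), against 2.20% of retinal progenitor-like cells in either library. Without thinning the shares were 94.1% and 91.2% for Ctsd and 41.4% and 68.6% for Hexa in RPE-like cells, which differ in depth between libraries.

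**Figure D2:**
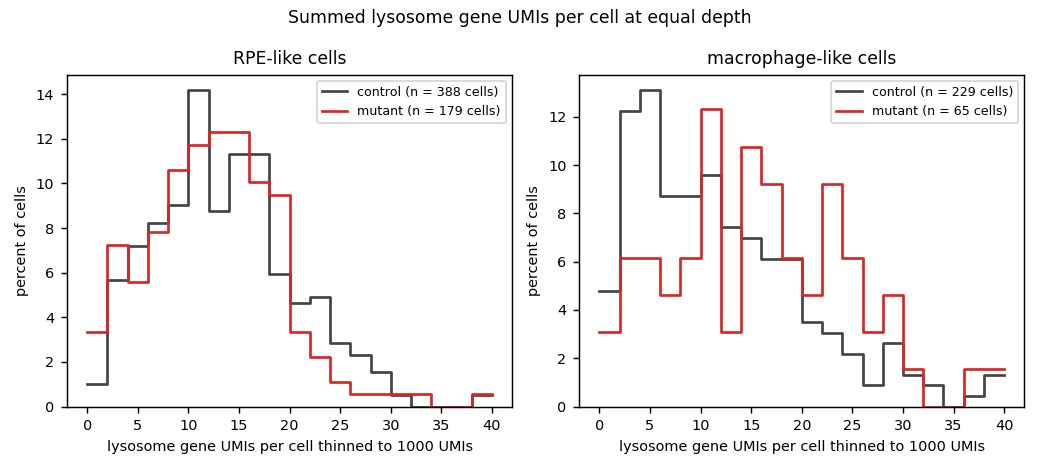
Percent of cells (vertical axis) by the number of UMIs from the 37 lysosome genes per cell after thinning to 1000 UMIs (horizontal axis, bins of 2), in RPE-like and macrophage-like cells. Grey lines are the control and red lines the mutant. The RPE-like distributions overlap, with medians of 13 and 12, while the macrophage-like medians are 10 and 15.

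In macrophage-like cells, which do not arise from the eye field, all 37 genes were measured. Ctsk alone was at least 1.5-fold lower in the mutant (2.70%) and no gene was higher, while 12.7% of all 8819 features measured there were lower and 7.98% were higher. The median log2 ratio was 0.17 for the 37 genes and -0.02 for all features. Ctsk had 27 UMIs in control and 1 UMI in mutant macrophage-like cells, a log2 ratio of -2.76 (-8.77 to -0.81), and the mesenchyme markers summed to 1555 CPM and 124 CPM there. The part of mesenchyme transcripts in this difference was not tested. Without doublet removal Ctsk had 26 control and 22 mutant UMIs and its log2 ratio was 0.81 (-0.038 to 1.73). Ctss, a cathepsin of antigen-presenting cells, measured 1164 CPM in control and 1368 CPM in mutant cells, a log2 ratio of 0.23 (0.12 to 0.35). Ctsb was 2149 and 2312 CPM, and Lgmn, the asparaginyl endopeptidase, was 1523 and 1815 CPM. Ctsd had a log2 ratio of -0.21 (-0.34 to -0.09) and Psap of 0.30 (0.16 to 0.44).

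Depth per cell differed between the libraries here, and its part in these values was not tested. The median count per cell thinned to 1000 UMIs was 10 in 229 control and 15 in 65 mutant macrophage-like cells, although the summed levels were 16348 and 17455 CPM. In the sums of the thinned cells 8 of 26 genes measured were at least 1.5-fold higher in the mutant, as were 15.7% of all 2246 features measured in these sums. In cells with more than 4000 UMIs (109 control and 53 mutant) no gene reached 1.5-fold in either direction.

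**Figure D3:**
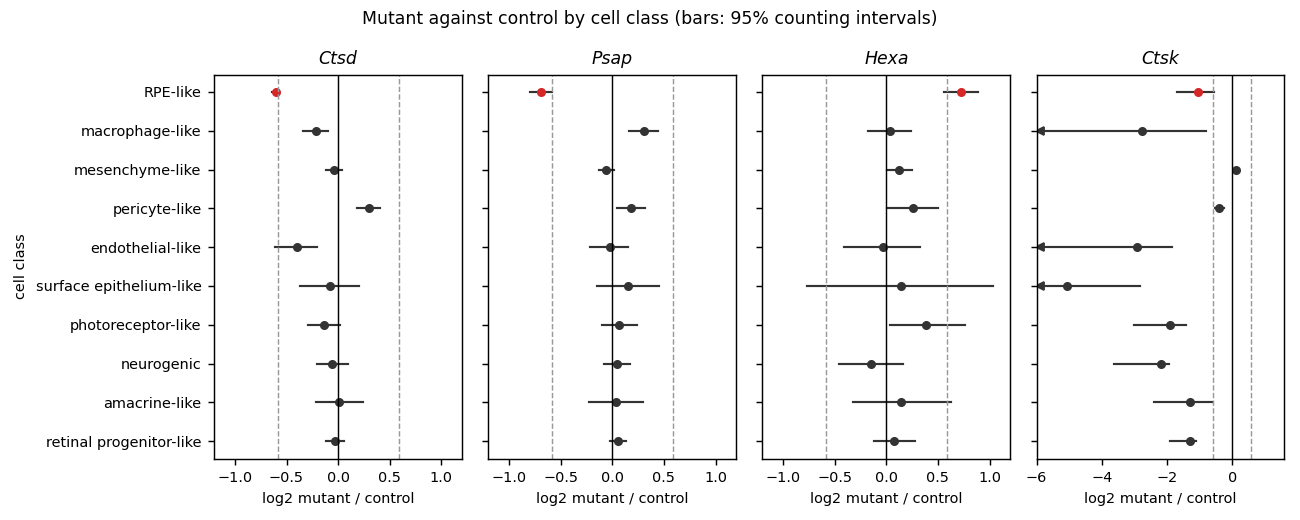
Log2 ratio of mutant over control (horizontal axis) in each of 10 cell classes (vertical axis) for Ctsd, Psap, Hexa and Ctsk. Points are ratios with 1 CPM added, red in RPE-like cells, bars 95% counting intervals (arrows where they run past the axis) and dashed lines 1.5-fold. Red blood-like cells are not drawn. Of the classes drawn, Ctsd, Psap and Hexa pass a dashed line in RPE-like cells alone, while Ctsk passes it in every class shown but mesenchyme-like and pericyte-like cells.

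Across the 11 classes with at least 50 cells in each library, most of the differences counted in RPE-like cells were not counted elsewhere. Ctsd, Psap, Cd68, Tfeb and Tfe3 reached 1.5-fold lower with an interval apart from 0 in the RPE-like class and in no other class where they were measured, and Glb1, Hexa, Gusb and Lipa reached 1.5-fold higher there and in no other. Short of 1.5-fold, Glb1 was also higher in neurogenic (0.49, 0.001 to 1.15) and retinal progenitor-like cells (0.41, 0.18 to 0.71). Lipa was higher in mesenchyme-like cells (0.44, 0.24 to 0.66) and Hexa in photoreceptor-like cells (0.38, 0.03 to 0.76). The lowest log2 ratios over the 11 classes were -0.44 for Glb1, -0.40 for Lipa and -0.15 for Hexa. Tfeb was also lower in retinal progenitor-like cells, at 34 control and 23 mutant UMIs, a log2 ratio of -0.48 (-1.67 to -0.03). Tfe3 had -0.38 (-0.75 to -0.06) in mesenchyme-like cells. In macrophage-like cells Tfeb had 0.32 (-0.99 to 1.57) and Tfe3 -0.04 (-0.64 to 0.53). The differences between classes were not tested. The log2 ratio of Ctsd was -0.03 (-0.12 to 0.06) in retinal progenitor-like cells. Ctsd levels were 321 and 312 CPM in mesenchyme-like cells, and 344 and 422 CPM in pericyte-like cells. Psap was 131 and 137 CPM in retinal progenitor-like cells and 343 and 330 CPM in mesenchyme-like cells. In pericyte-like cells Ctsd was thus somewhat higher in the mutant, with a log2 ratio of 0.30 (0.19 to 0.41) under 1.5-fold. In endothelial-like cells Ctsd was lower, at 201 and 152 CPM, a log2 ratio of -0.40 (-0.61 to -0.20) that is also under 1.5-fold. In red blood-like cells it had 11 control and 19 mutant UMIs, a log2 ratio of 0.80 (-0.30 to 2.06). Of the classes with fewer cells, melanocyte-like cells (30 control and 18 mutant) had Tfeb at 48 and 14 UMIs, a log2 ratio of -0.99 (-1.98 to -0.12), and Lipa at 53 and 15 UMIs, a log2 ratio of -1.03 (-1.98 to -0.20). Astrocyte-like cells (31 control and 32 mutant) had Hexa at 21 and 59 UMIs, a log2 ratio of 0.90 (0.18 to 1.71). Atp6ap1 in melanocyte-like cells (55 and 53 UMIs, 0.71, 0.15 to 1.29) and Tpp1 in astrocyte-like cells (23 and 67 UMIs, 0.96, 0.27 to 1.72) were also higher, and shares over all features were not computed for these small classes. Tfeb and Hexa thus moved the same way there as in RPE-like cells, and Lipa the other way.

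Ctsk was lower by at least 1.5-fold in 8 of the 10 classes where it was measured. Ctsh was lower in photoreceptor-like cells as well as RPE-like cells, at 21 control UMIs (4.88 CPM) and 8 mutant UMIs (1.56 CPM) with a log2 interval of -3.03 to -0.41, in a class where 3.65% of all features were lower. Control retinal progenitor-like cells had 179 Ctsk UMIs (9.66 CPM) and mutant ones 76 (3.39 CPM), and in endothelial-like cells 49 and 2 UMIs, a log2 ratio of -2.92 (-6.87 to -1.85). In mesenchyme-like cells Ctsk had a log2 ratio of 0.13 (0.07 to 0.18). The mesenchyme markers moved with it: their sum in retinal progenitor-like cells was 1462 CPM for control and 250 CPM for mutant cells, and in endothelial-like cells 1376 and 179 CPM, while mesenchyme-like cells had 79957 and 90100 CPM. The median log2 ratio of the lysosome genes measured in the 9 classes other than RPE-like and macrophage-like cells lay between -0.16 in surface epithelium-like cells (31 genes) and 0.30 in red blood-like cells (10 genes), where the medians of all features were -0.03 and 0.23.

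The genes were then compared between macrophage-like and RPE-like cells within each library, both being cell types that digest engulfed material. In the control 15 of the 37 genes were at least 1.5-fold higher in macrophage-like cells and 8 in RPE-like cells, where 24.0% and 34.6% of 11407 features were. In the mutant the numbers were 17 and 7, against 23.4% and 38.2% of 10136 features. In both libraries 14 genes were higher in macrophage-like cells: Ctsb, Ctsa, Ctsz, Ctsh, Ctsc, Ctss, Lgmn, Lamp1, Cd68, Npc1, Gusb, Man2b1, Grn and Tfe3. In both libraries 5 genes were higher in RPE-like cells: Ctsd, Ctsk, Cd63, Gaa and Lipa. The share of all features called in both libraries was not computed. The median log2 ratio of macrophage-like over RPE-like cells was 0.12 in the control and 0.47 in the mutant, against -0.18 and -0.24 for all features.

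Ranked by the smaller of their ratios in the libraries, the 5 genes with the largest excess in macrophage-like cells were Ctss, Cd68, Ctsh, Lgmn and Ctsb. Ctss was at least 1247-fold higher in the control and at least 1089-fold higher in the mutant, taking 3 UMIs per class as the limit for its count of 0 in RPE-like cells. Cd68 was 23.9-fold higher in the control and 45.8-fold higher in the mutant, Ctsh was 18.9-fold and 31.6-fold higher, Lgmn 9.51-fold and 13.1-fold, and Ctsb 6.32-fold and 8.52-fold. Gusb came next by this ranking, at 7.62-fold and 5.37-fold, and in the control alone it stood above Ctsb. In the other direction, Ctsd was 5.03-fold higher in RPE-like cells of the control and 3.84-fold higher in those of the mutant. Gaa was 4.30-fold and 5.06-fold higher, and Cd63 2.86-fold and 2.92-fold higher, in RPE-like cells.

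**Figure D4:**
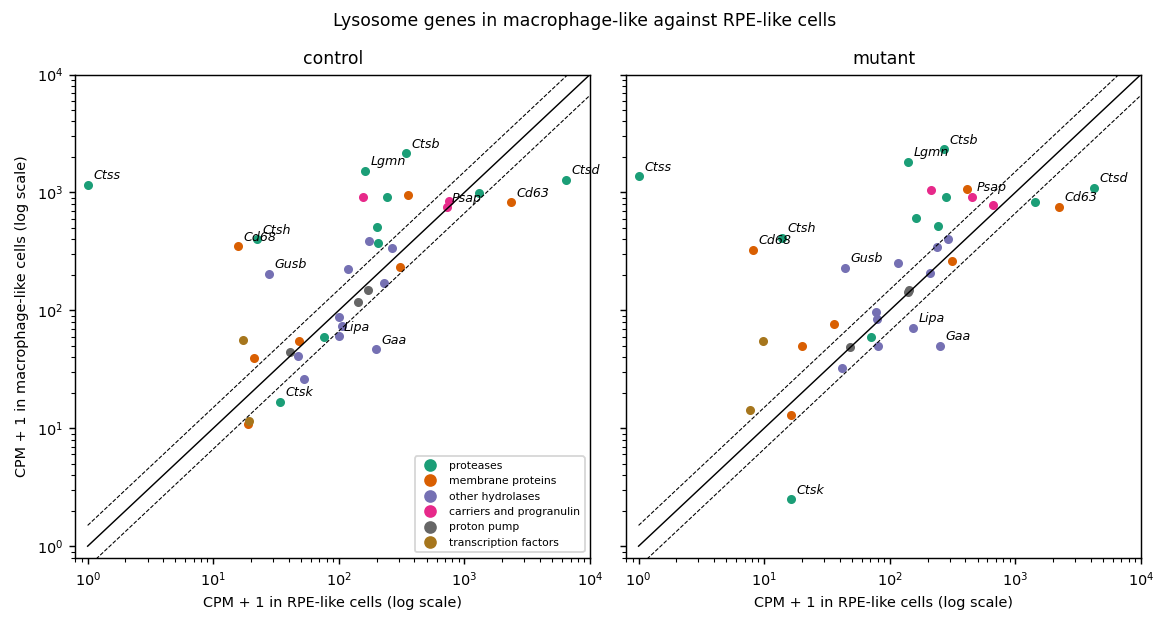
CPM plus 1 of each lysosome gene in macrophage-like cells (vertical axis) against RPE-like cells (horizontal axis), on log scales, for the control and the mutant library. Points are genes coloured by role, the solid line marks equal levels and dashed lines 1.5-fold. Ctss lies at the left edge because it had no UMI in RPE-like cells, and Ctsd, Cd63 and Gaa lie below the lower dashed line in both panels.

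The ratio of Psap between the classes differed between libraries, at 1.03-fold higher in macrophage-like cells of the control and 2.06-fold higher in those of the mutant. Hexa showed the opposite, 2.24-fold and 1.39-fold. These ratios use the same levels as the comparisons of mutant and control above, in which Psap was lower in RPE-like and higher in macrophage-like cells, and are not separate results. Pump subunits were close to equal in both classes, with log2 ratios of macrophage-like over RPE-like cells between -0.27 and 0.12 in the 2 libraries.

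Seen over the 11 classes, lysosome transcripts were concentrated in these 2. They made up 1.55% of UMIs in control and 1.31% in mutant RPE-like cells, and 1.63% and 1.75% in macrophage-like cells. The share was 0.615% and 0.634% in mesenchyme-like cells, 0.202% and 0.207% in retinal progenitor-like cells and 0.0298% and 0.0353% in red blood-like cells. Melanocyte-like cells, too few to be among the 11 classes, had 1.02% and 1.03%. Without Ctsd they held 9548 and 9603 CPM of these genes, against 9110 and 8859 CPM in RPE-like cells. The level in macrophage-like cells was the highest of the 11 classes for 17 genes in both libraries, among them Grn, Hexa and Lamp1. RPE-like cells were highest for 8 genes in both: Ctsd, Lamp2, Cd63, Gaa, Glb1, Naglu, Lipa and Tpp1. This order leaves out melanocyte-like cells, which had too few cells and in which Cd63 (3495 and 3367 CPM), Naglu (103 and 115 CPM) and Tfeb (85.2 and 42.4 CPM) were higher than in any of the 11 classes in both libraries. The leading class did not always stand clear of the next: for Glb1 in the control, 46.7 CPM in RPE-like and 39.8 CPM in macrophage-like cells, the interval of the log2 ratio included 0.

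Of the genes led by other classes, Ctsf, Scarb2, Mcoln1 and Atp6v0d1 were highest in photoreceptor-like cells, Ctsl and Ctsh in surface epithelium-like cells, Ctsk in mesenchyme-like cells, Atp6v1h in amacrine-like cells and Tfeb, melanocyte-like cells aside, in endothelial-like cells. Ctsf, a cysteine cathepsin, was 356 CPM in control and 388 CPM in mutant photoreceptor-like cells, with 95.8 and 84.0 CPM in the neurogenic class that came next. Ctsl was 2672 and 2133 CPM in surface epithelium-like cells, with 1300 and 1431 CPM in RPE-like cells next. Both led clearly, whereas for Ctsh, Scarb2, Mcoln1 and Tfeb the first class and the next did not differ beyond counting error in either library.

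**Figure D5:**
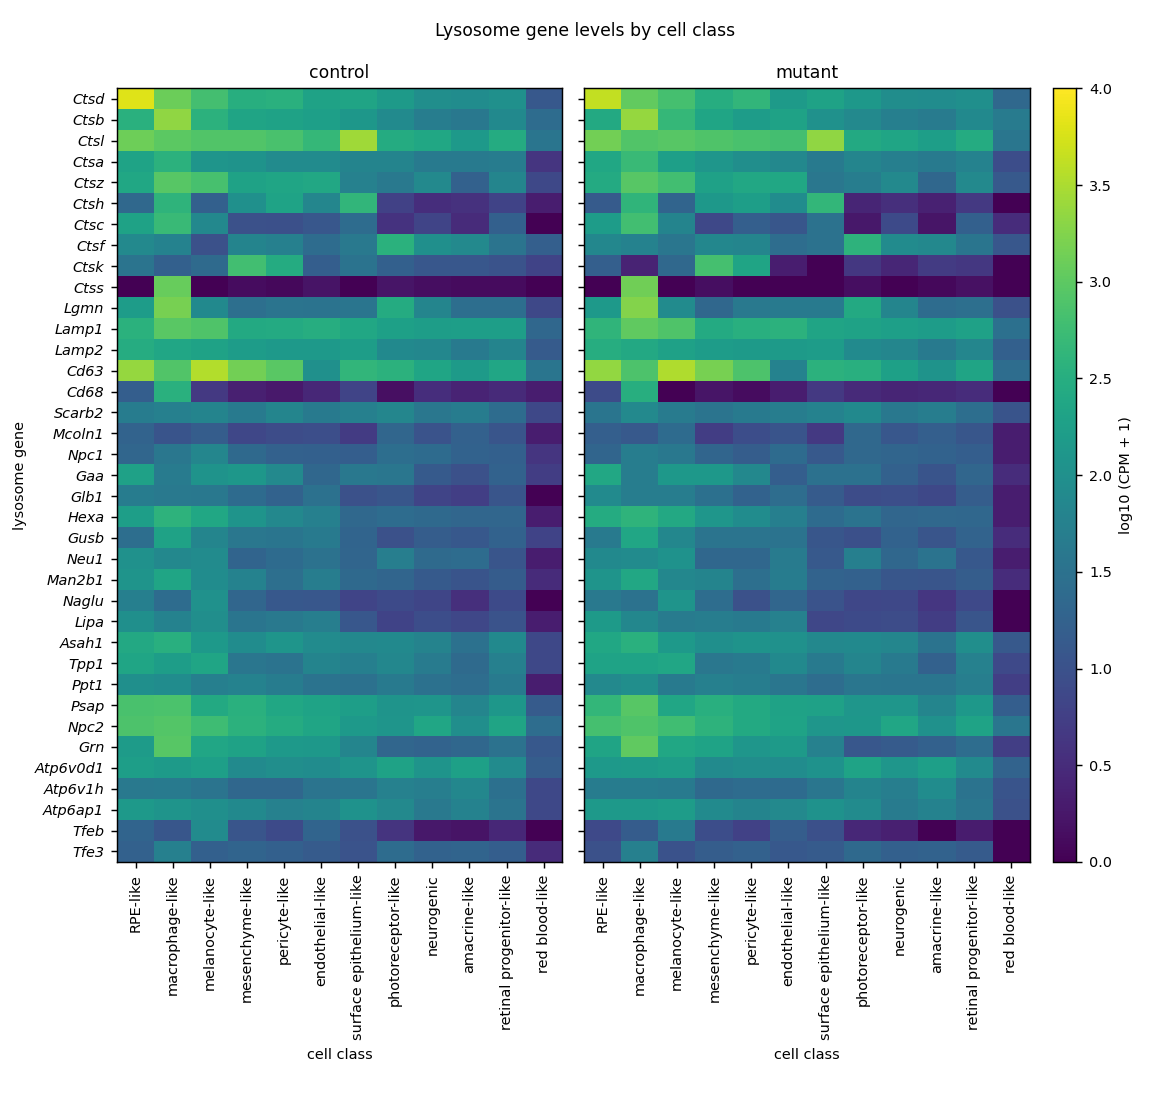
Level of each lysosome gene (rows) in each cell class (columns) as log10 of CPM plus 1, for control and mutant. Brighter cells are higher. Ctss is bright in macrophage-like cells alone, Ctsd is brightest in RPE-like cells, and red blood-like cells are dark throughout. Melanocyte-like cells are shown although only 30 control and 18 mutant cells were found.

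Other gene lists of the pathway were measured in RPE-like cells for comparison. Of 30 further lysosome genes, 2 were at least 1.5-fold higher and 5 lower in the mutant, with a median log2 ratio of 0.03, and 1 of the 2 higher and all 5 lower had intervals apart from 0. These shares, 6.67% and 16.7%, stand beside 7.43% and 12.1% of all features. Ostm1, a partner of the chloride transporter Clcn7, measured 168 CPM in control and 61.6 CPM in mutant cells, a log2 ratio of -1.43 (-1.72 to -1.18). Ctns, the cystine exporter, was 30.5 and 17.2 CPM, a log2 ratio of -0.79 (-1.39 to -0.29). Both of these genes were lower in mutant RPE-like cells.

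Of 12 other pump genes none was higher and 2 were lower, Atp6v0c at 22 and 5 UMIs and Atp6v0b at 940 and 619 CPM, with a median log2 ratio of -0.25. Of 13 autophagy genes 2 were lower, 1 of them with an interval apart from 0, and none higher. The lower shares of these lists, 16.7% and 15.4%, stand beside 12.1% of all features. All 12 pump genes had log2 ratios below 0, 7 of them with intervals apart from 0, as did 12 of the 13 autophagy genes, 4 with intervals apart, while of all features 5687 lay below 0 and 5396 above. Among the autophagy genes Wipi1, a phosphoinositide-binding autophagy protein, was 105 and 46.5 CPM, a log2 ratio of -1.15 (-1.49 to -0.86). Of 12 measured genes of the MiT family and mTORC1, and of 5 measured sorting genes, none reached 1.5-fold. Of 12 melanosome genes 3 were lower, 2 of them with intervals apart from 0, with a median log2 ratio of -0.43. Among them Gpr143, a melanosomal receptor, was 118 and 52.0 CPM, and Slc24a5, an ion exchanger of the melanosome, was 960 and 562 CPM. The melanosome, an organelle related to the lysosome, had the lowest median of these lists in mutant RPE-like cells. That was not particular to this class. The melanosome median was -0.39 in retinal progenitor-like, -0.66 in photoreceptor-like and -1.65 in endothelial-like cells, and 0.04 in mesenchyme-like cells.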

How the data were processed

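UMIs of 3′ end libraries (10x Genomics) were counted by the authors with Cell Ranger on genome build mm10 (GRCm38). The submitters' processing notes name Cell Ranger 7.1.0 and Seurat 4.1.1, while the deposited matrix headers name software version 3.1.0. The annotation used for counting is not given in the sources used here. The deposited matrices hold raw UMI counts, which are not normalized. Total depth was 79017429 UMIs (control) and 76272867 UMIs (mutant), and 47 barcodes occurred in both libraries.

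Barcodes with at least 200 genes and at most 15% mitochondrial UMIs were kept. The study's limit of 2000 UMIs per cell was used only as an alternative, since 80.2% (control) and 92.1% (mutant) of the barcodes exceeded it. Doublets were scored with Scrublet (scanpy 1.11.5), and the top-scoring barcodes were removed at the expected rate of 0.8% per 1000 barcodes (1646 control, 1214 mutant), because Scrublet's own threshold marked 0% and 5.46%. Cells were clustered with Seurat 5.3.0 (R 4.3.3, 30 principal components, resolution 1) without the genes compared here and without RPE and melanocyte markers. Classes are named from marker lists, with limits set after the clusters were seen, and 2197 control and 992 mutant cells stayed unnamed.

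UMIs were summed per class and library (Python 3.11.15, numpy 2.4.6, scipy 1.17.1). Log2 ratios have 1 CPM added, and their intervals are exact conditional ones for the ratio without that addition, and shares have Clopper-Pearson intervals. A feature needed 20 UMIs over both libraries. Single-gene ratios and tallies under the alternative settings were given without that rule. Ratio calculations were tested on simulated data. Alternatives changed the scaling, filters, depth, doublet removal, resolution and cell subsets. The genes and lists were chosen with earlier results of these data known. All members are accounted for, those past 1.5-fold in RPE-like cells are named with their values, and of the other lists at most the 2 largest changes per direction are named. The values of 1 gene of the other lists are not reported here.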

Additional observations from a re-analysis of the deposited data

Results flagged for a closer look

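For 5 genes the counting intervals lay apart from 0 in both RPE-like and macrophage-like cells but on opposite sides. Psap had a log2 ratio of mutant over control of -0.69 in RPE-like and 0.30 in macrophage-like cells, a difference of -0.99. The same difference was -0.58 for Ctsc, -0.46 for Lgmn and -0.43 for Ctsb, which were all lower in mutant RPE-like and higher in mutant macrophage-like cells, and 0.38 for Ctsl, which had the reverse. With 1 library per genotype the differences between classes were not tested. Of the other genes whose intervals lay apart from 0 in both classes, 2 were lower in both and 3 were higher in both.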

How the results depend on the processing

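No paired analysis was possible because each genotype gave 1 library. In RPE-like cells the number of genes lower in the mutant was 2 at 2-fold and 1 in cells thinned to 1000 UMIs, and the number higher was 0 at 2-fold, 2 without doublet removal and 2 in cells that had Xist but lacked Y-linked transcripts. Each count takes the genes with enough UMIs under its own setting, so it need not hold the genes named above. When thinned, Ctsd, Psap and Tfeb did not reach 1.5-fold lower. The median log2 ratio was 0.078 when thinned. In macrophage-like cells the number lower was 0 with at least 50 UMIs, in cells over 4000 or over 8000 UMIs (the latter limit chosen after seeing the data), at a mitochondrial limit of 5%, without doublet removal, in the same Xist subset, and in cells without RPE markers. The number higher there was 8 when thinned, 1 without doublet removal and 6 in the Xist subset. Genes higher in RPE-like than macrophage-like cells of both libraries numbered 3 when thinned, at the 5% limit and without doublet removal. Shares over all features are not set beside the counts in this paragraph. The counts therefore show how the calls depend on the processing and are not read as results about the lysosome genes. Among genes counted past 1.5-fold with an interval apart from 0, direction reversed for Tfeb when thinned (0.11), Glb1 in cells with up to 4000 UMIs (-0.062) and up to 2000 UMIs (-1.16), Ctsh (0.067), Cd68 (0.37) and Lipa (-0.19) in cells with up to 2000 UMIs, Ctsh at resolution 2 (0.11), and Ctsk in macrophage-like cells without doublet removal (0.81). The cause was not tested. Genes not so counted could also change sign, as Cd63 (0.12 when thinned) and Ctsl (-0.11 at the 5% limit) did in RPE-like cells. Of the other values 143 counts and medians and 434 single-gene ratios stayed within their limits, and 121 single-gene ratios moved beyond them. Cells with up to 4000 or 2000 UMIs and cells with Y-linked UMIs gave no macrophage-like value, having fewer than 20 mutant cells. Genes with few UMIs are limited by depth: 1 library per genotype gives no measure of variation between animals.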

Other observations

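Melanocyte-like cells, 30 control and 18 mutant ones, held 10196 and 10258 CPM of the 37 lysosome genes. In mutant macrophage-like cells 5 of 8 measured melanosome genes were lower (Pmel, Tyr, Tyrp1, Dct and Mlana), with a median log2 ratio of -2.46, where 12.7% of all features measured were lower. The same 5 were lower in endothelial-like cells (5 of 8, against 8.34% of all features). Pmel, Tyr, Tyrp1 and Dct were lower in retinal progenitor-like cells (4 of 10, against 1.93%). These 4 were also lower in neurogenic (4 of 7, against 2.54%) and photoreceptor-like cells (4 of 7, against 3.65%). In mesenchyme-like cells 1 of 9 was lower, against 2.43%. The RPE markers, which include Tyrp1, summed to 558 CPM in control and 116 CPM in mutant macrophage-like cells. Their part in the macrophage-like difference was not tested. In other classes with at least 50 cells per library, and apart from Ctsk and Ctsh, 6 genes passed 1.5-fold with an interval apart from 0. Ctsc was higher in mutant pericyte-like cells (log2 ratio 0.81), where 5.29% of all features were higher. In endothelial-like cells Naglu and Npc1 were higher (0.82 and 0.60) and Cd63 was lower (-0.76), where 3.75% of features were higher and 8.34% lower. Grn was lower in mutant photoreceptor-like cells (-0.77), where 3.65% were lower, and Ctsb was higher in red blood-like cells (0.83), where 24.6% were higher.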
